A study of Arabidopsis thaliana with 9 samples.

Results

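SDP1 and AIM1 are 2 genes of storage oil breakdown in Arabidopsis thaliana, measured here in germinating seeds on a 1-colour expression array. They were chosen by name: the platform annotation gives 1 probe set to SDP1 (locus AT5G04040) and 1 to AIM1 (AT4G29010), out of 22746 non-control probe sets, of which 15922 were tested and 8955 carried 1 named gene. Both members were among the tested probe sets. Neither gene was chosen for a measured value by that rule, but both were picked with earlier results of these data known.

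The seeds were of 3 genotypes with 3 arrays each, 9 arrays in all. mARF10 seeds carried a transgene in which 3 kb upstream of AUXIN RESPONSE FACTOR10 drive its 2.3 kb coding region, fused to green fluorescent protein and its microRNA160 target site held 4 mutations. ARF10 seeds carried the same fusion with that site intact, and Col-0 is the wild-type accession, with no transgene. The labels place the transformed plants under the upstream region of ARF10 itself, and how many transformed lines stand behind each genotype is not given in the sources used here. All seeds lay in water for 3 days at 4 °C in the dark and then for 22 h at 22 °C in the light, and each sample held 3 seed lots. The replicates are called independent biological ones in the labels. Transcript of the transgene was not analysed here.

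Arabidopsis seeds store most of their carbon as triacylglycerol in oil bodies, which oleosins coat. During germination and early seedling growth lipases release fatty acids from this oil, an ABC transporter carries them into the peroxisome, and beta-oxidation shortens them to acetyl-CoA. The glyoxylate cycle and gluconeogenesis then turn acetyl-CoA into sugar until the seedling can photosynthesise. SDP1 (SUGAR-DEPENDENT1) encodes a patatin-type triacylglycerol lipase on the oil body surface and is the main lipase that starts this process. AIM1 (ABNORMAL INFLORESCENCE MERISTEM1) encodes a multifunctional protein of peroxisomal beta-oxidation, with enoyl-CoA hydratase and 3-hydroxyacyl-CoA dehydrogenase activities, and also acts in the synthesis of jasmonate and other signals made by beta-oxidation. Transcript was measured here, not lipase activity, flux or oil content. In whole seeds a smaller share of cells with a transcript cannot be told apart from less transcript per cell.

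The lipase gene SDP1 had its lowest signals in the mARF10 arrays. The values are the authors' deposited log2 signals, on which a step of 1 is a doubling. SDP1 stood at 9.92, 9.86 and 9.98 in mARF10 seeds, at 10.06, 10.23 and 10.13 in ARF10 seeds, and at 10.05, 10.23 and 10.19 in Col-0 seeds. Every mARF10 array lay below every array of the other genotypes, while the ARF10 and Col-0 arrays overlapped over nearly their whole range. Over all tested probe sets, 4.57% had every mARF10 array below the other 6, and SDP1 was 1 of these 727 probe sets. The genotype means were 9.92 ± 0.063 in mARF10, 10.14 ± 0.088 in ARF10, and 10.16 ± 0.097 in Col-0 seeds (SD, n = 3 each). The order from low to high was thus mARF10, ARF10 and Col-0, and the neighbours ARF10 and Col-0 differed by less than their spread.

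The beta-oxidation gene AIM1 had its highest mean in mARF10 seeds and its lowest in ARF10 seeds. It stood at 10.39, 10.07 and 10.11 in mARF10 seeds, at 10.07, 9.99 and 9.87 in ARF10 seeds, and at 10.03, 10.14 and 10.05 in Col-0 seeds. mARF10 replicate 1 held the highest value and ARF10 replicate 3 the lowest. The mARF10 arrays did not overlap the ARF10 arrays, but the gap between the nearest 2 arrays was only 0.0021, and the Col-0 arrays overlapped both. The means were 10.19 ± 0.17 in mARF10, 9.98 ± 0.098 in ARF10 and 10.07 ± 0.055 in Col-0 seeds (SD, n = 3 each). In the order ARF10, Col-0 and mARF10 from low to high, the step of 0.099 from ARF10 to Col-0 was about as large as the SD of ARF10. The step of 0.115 from Col-0 to mARF10 was smaller than the SD of mARF10.

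**Figure D1:**
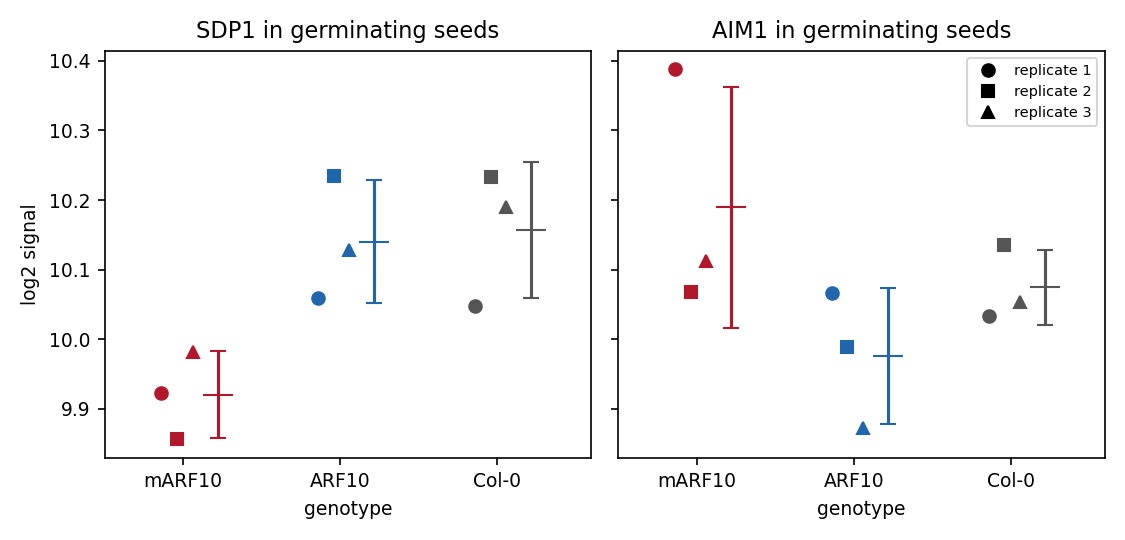
Log2 signal (vertical axis) of SDP1 (left) and AIM1 (right) on each of the 9 arrays by genotype; symbols mark the replicate number, and the bar beside each group gives its mean and SD (n = 3). The 3 mARF10 points of SDP1, from 9.86 to 9.98, lie below the other 6, while the 3 mARF10 points of AIM1 spread from 10.07 to 10.39 and overlap Col-0.

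Between mARF10 and ARF10 seeds, which differ in the microRNA160 site of the transgene, neither member passed the test. For SDP1 the log2 difference was -0.22 (SE 0.079, 95% interval -0.40 to -0.042), a signal ratio of 0.858. Its unadjusted p was 0.0209 and its adjusted p 0.355 by limma with Benjamini-Hochberg adjustment over the 15922 probe sets. For AIM1 the log2 difference was 0.21 (SE 0.097, 95% interval -0.0050 to 0.43), a ratio of 1.16, with an unadjusted p of 0.0544 and an adjusted p of 0.467 by limma. In the same fit 0.408% of the tested probe sets were called at an adjusted threshold of 0.05. Without adjustment 5.58% were lower with p under that threshold, as SDP1 was. All mARF10 arrays lay below all ARF10 arrays in 12.7% of the probe sets, as for SDP1, and above them in 9.58%, as for AIM1. Of all tested probe sets, 6.58% had a difference at least as low as that of SDP1, and 9.5% had one at least as high as that of AIM1.

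The AIM1 difference between mARF10 and ARF10 rested in part on 1 array. Without mARF10 replicate 1 it was 0.11 (adjusted p = 0.702 by limma), and with each other array left out in turn it lay between 0.16 and 0.27. The SDP1 difference between them lay between -0.26 and -0.17 whichever array was left out.

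In mARF10 seeds set against the wild type Col-0, SDP1 again had the lower signal, by a log2 difference of -0.24 (SE 0.079, 95% interval -0.42 to -0.058), a ratio of 0.849. Its unadjusted p was 0.0148 and its adjusted p 0.418, so it did not pass. In this comparison 0% of the tested probe sets were called after adjustment by limma, 10.7% had an unadjusted p under 0.05 (5.83% with a lower signal in mARF10) and 7.12% had all mARF10 arrays below all Col-0 arrays. AIM1 differed by 0.11 (SE 0.097, 95% interval -0.10 to 0.33) with an adjusted p of 0.649, and its arrays overlapped. A difference at least as low as that of SDP1 was seen in 6.82% of the tested probe sets, and one at least as high as that of AIM1 in 21.7%. Without mARF10 replicate 1 the AIM1 difference was 0.015. Both comparisons use the same mARF10 arrays, so the low SDP1 values in them are not separate evidence.

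Col-0 replicate 2 stood apart from the other arrays over the tested probe sets, at 41.3 on the 1st principal component against -17.3 to 5.87 for the other 8. It did not stand apart for either member: its SDP1 signal of 10.23 equalled that of ARF10 replicate 2 to 2 decimals, and its AIM1 signal of 10.14 was below that of mARF10 replicate 1. Without it, SDP1 differed between mARF10 and Col-0 by -0.20 (adjusted p = 0.568 by limma) and AIM1 by 0.15 (adjusted p = 0.732).

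ARF10 and Col-0 seeds, which differ by a transgene whose site is intact, gave the smallest SDP1 difference of the 3 comparisons. SDP1 differed by -0.017 (SE 0.079, 95% interval -0.20 to 0.16, adjusted p = 0.971 by limma), and the sign turned under several settings. AIM1 differed by -0.099 (SE 0.097, 95% interval -0.32 to 0.12, adjusted p = 0.892), and its arrays overlapped. Without ARF10 replicate 3, which had the lowest AIM1 signal, that difference was -0.047. Limma called 0% of the tested probe sets here, and 4.64% had an unadjusted p under 0.05. On a linear scale the intervals span ratios of 0.874 to 1.12 for SDP1 and 0.802 to 1.09 for AIM1, which bounds the size of a difference rather than showing that the genotypes are alike.

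**Figure D2:**
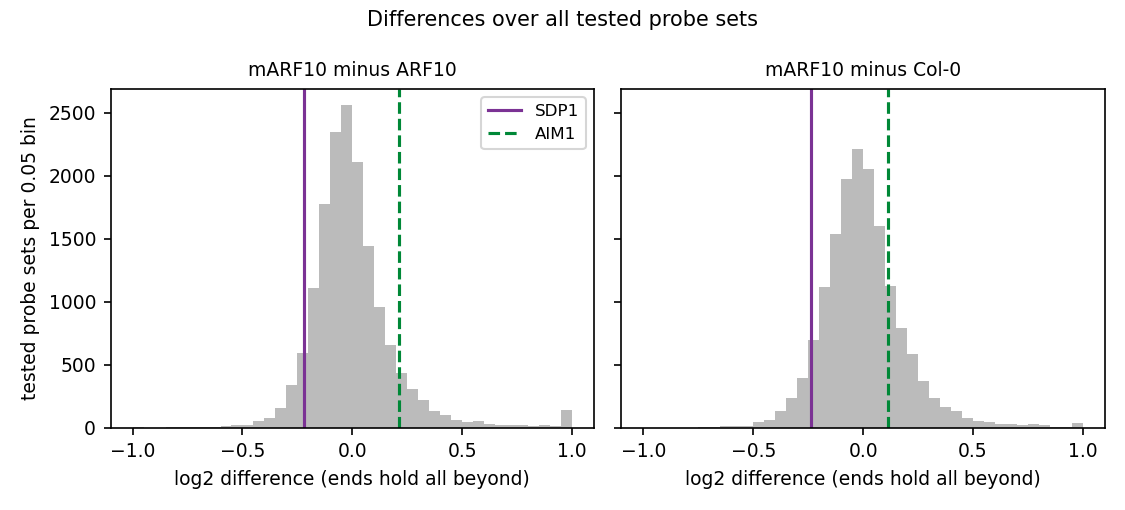
Number of tested probe sets (vertical axis) by log2 difference in bins of 0.05 (horizontal axis) for mARF10 minus ARF10 and mARF10 minus Col-0, with SDP1 as a solid and AIM1 as a dashed line; the end bins hold all values beyond them. SDP1, at -0.22 and -0.24, lies in the lower flank of both distributions and AIM1, at 0.21 and 0.11, in the upper one.

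Tested over the 3 genotypes together, neither gene passed after adjustment. For SDP1 limma's moderated F was 5.60, with an unadjusted p of 0.0260 and an adjusted p of 0.484. An exact permutation test of the F ratio over the 1680 assignments of the 9 arrays gave p = 0.0464 for SDP1, where the smallest possible value is 0.00357. This exact p is for a single gene and is not adjusted for other genes. SDP1 was picked with earlier results of these data known, so this p is a description and not independent support. For AIM1 F was 2.44 (adjusted p = 0.615) and the exact permutation p was 0.10. The F-test called 0.0816% of the tested probe sets after adjustment, and 9.45% had an unadjusted p under 0.05. Between single pairs of genotypes, exact permutation of 3 against 3 arrays cannot go below a 2-sided p of 0.10. SDP1 reached that value for mARF10 against ARF10 and against Col-0, and AIM1 for mARF10 against ARF10. It is reached whenever the arrays of 2 genotypes do not overlap, so it restates the lack of overlap given above and adds no evidence.

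Both genes varied little in absolute terms. The 9 arrays of SDP1 spanned 0.38 on the log2 scale, a fold of 1.30, and those of AIM1 spanned 0.52, a fold of 1.43; the median span over the tested probe sets was 0.42. Within genotypes the pooled SD was 0.084 for SDP1, lower than in most tested probe sets (21.3% had a smaller one), and 0.119 for AIM1, close to the median of 0.124. Differences between genotype means held 71.3% of the variance of SDP1 and 44.6% of that of AIM1. The same share over all tested probe sets was not computed, and neither gene passed the F-test after adjustment.

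The correlation between the lipase gene and the beta-oxidation gene did not pass its test. Over the 9 arrays Pearson's r between SDP1 and AIM1 was -0.434 (exact permutation p = 0.249) and Spearman's rho was -0.450 (exact permutation p = 0.230). Of 8865 other named genes, 6934 had a higher Pearson's r with SDP1 than AIM1 had. With AIM1, 7727 had a higher one than SDP1 had. SDP1 and AIM1 were the only pair whose correlation was tested, so no adjustment was made. Leaving out the 2 arrays farthest from the median of SDP1, which were mARF10 replicate 2 and ARF10 replicate 2, gave r = -0.523 over 7 arrays (exact permutation p = 0.222). Leaving out mARF10 replicate 1 alone, the array with the highest AIM1 signal, gave r = -0.177 (exact permutation p = 0.673), so the size of r rested in large part on that array. For deviations from the genotype means, pooled over the 9 arrays, r was 0.122, so the pooled sign was not negative. This value was not tested, and r was not computed for each genotype alone.

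Within each array, the log2 signal of AIM1 minus that of SDP1 was 0.47, 0.21 and 0.13 in mARF10 seeds, 0.007, -0.25 and -0.26 in ARF10 seeds, and -0.015, -0.096 and -0.14 in Col-0 seeds. The 3 mARF10 arrays lay above the other 6, and the ARF10 and Col-0 arrays overlapped. How often other pairs of genes part in this way was not counted. The measure holds the low mARF10 signals of SDP1 given above, so it is not separate evidence. The zero of this measure has no meaning, since the signals of different probe sets are not on one scale, and only its change between genotypes can be read. It was looked at after the values were seen, so no test is given.

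**Figure D3:**
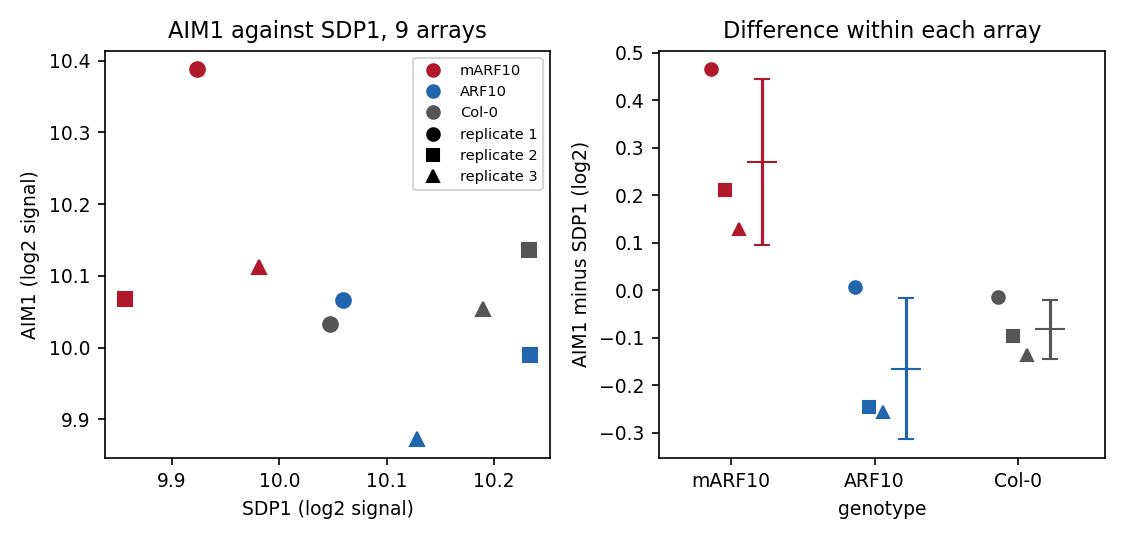
Left, AIM1 against SDP1 log2 signal on the 9 arrays, coloured by genotype with the replicate number as symbol; right, AIM1 minus SDP1 within each array by genotype, with mean and SD (n = 3). The mARF10 arrays hold the 3 lowest SDP1 values and the 3 highest differences (0.13 to 0.47), and r was not computed for each genotype alone.

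The rest of the oil breakdown pathway was thinly named on this array. Of 81 genes listed from lipolysis to gluconeogenesis, the annotation named 13, and all 13 were tested; others may be among probe sets unnamed here. None of the 13 passed in any of the 3 comparisons, with adjusted p from 0.355 to 0.992 by limma. Between mARF10 and ARF10 seeds 6 were positive and 7 negative, with a median log2 difference of -0.025 against -0.022 over all tested probe sets. Between mARF10 and Col-0 the median was 0.033 against -0.011, with 7 positive and 6 negative. Between ARF10 and Col-0 it was -0.017 against 0.0081, with 5 positive and 8 negative. SDP1 had the lowest difference of the 13 in both mARF10 comparisons.

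Among lipolysis genes, SDP1-LIKE, the paralog that encodes the second lipase of this type, did not share the SDP1 order. Its means were 8.62 ± 0.15 in mARF10, 8.69 ± 0.071 in ARF10 and 8.58 ± 0.074 in Col-0 seeds (SD, n = 3 each), with overlapping arrays in all comparisons. The log2 difference of SDP1-LIKE was -0.063 for mARF10 minus ARF10 and 0.046 for mARF10 minus Col-0 (adjusted p = 0.847 and 0.851 by limma). Whether SDP1 and SDP1-LIKE differed from each other in their response was not tested. The other 4 named genes of this list carry only a locus name in the annotation. AT4G24160 came closest to SDP1, with all mARF10 arrays below all Col-0 arrays and a difference of -0.19 (adjusted p = 0.455), but it overlapped between mARF10 and ARF10 (-0.076). AT3G14360 was at 0.24 for mARF10 minus ARF10 with no overlap between the arrays (adjusted p = 0.580). Such a lack of overlap was common: 7.12% of all tested probe sets lay lower in mARF10 than Col-0 in this way, as AT4G24160 did. Against ARF10, 9.58% lay higher in mARF10, as AT3G14360 did. AT1G33270 differed by -0.063 and AT4G10790 by -0.025 in that comparison.

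AIM1 was the 1 named gene of the 11 listed for the core of beta-oxidation. Of the auxiliary steps 3 of 12 listed genes were named. SDRB, a short-chain dehydrogenase-reductase also called DECR, differed by -0.062 between mARF10 and ARF10 (adjusted p = 0.764), with SDs of 0.023 and 0.021 and arrays that did not overlap. Of all tested probe sets, 12.7% likewise had all mARF10 arrays below all ARF10 arrays. OPCL1, which encodes an OPC-8:0 CoA ligase of jasmonate synthesis, was at 0.036 and 0.18 against ARF10 and Col-0 (adjusted p = 0.942 and 0.558). AT1G01710 was at 0.085 and 0.077 in these comparisons.

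Further down the pathway, ICL, which encodes isocitrate lyase of the glyoxylate cycle, was among the strongest signals on the array. It ranked 2 by mean among the 22746 non-control probe sets. ICL stood between 14.64 and 14.78 in mARF10, between 14.63 and 14.74 in ARF10 and between 14.64 and 14.68 in Col-0 seeds. Its differences were 0.022 for mARF10 minus ARF10 and 0.047 for mARF10 minus Col-0 (adjusted p = 0.937 and 0.788 by limma). These values lie at the top of the table's range of 3.70 to 14.78, and whether the signal was saturated there was not assessed. PPDK, the pyruvate orthophosphate dikinase, was at 11.87 ± 0.11 in mARF10, 11.96 ± 0.045 in ARF10 and 11.94 ± 0.17 in Col-0 seeds. It had a difference of -0.087 between mARF10 and ARF10 (adjusted p = 0.793). PEX4, a ubiquitin-conjugating enzyme of peroxisomal import, was the 1 of 30 listed peroxisome genes named, at 0.065 for mARF10 minus ARF10 (adjusted p = 0.906).

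**Figure D4:**
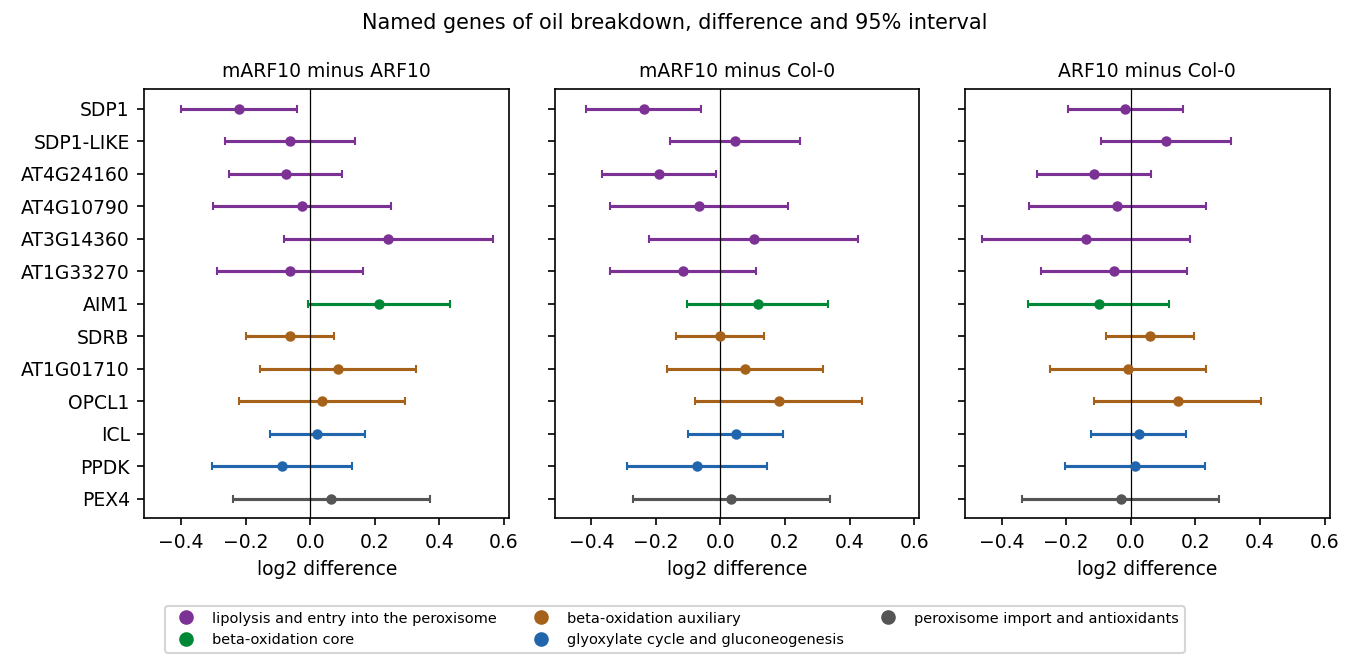
Log2 difference (horizontal axis) with its 95% limma interval for the 13 named genes of oil breakdown, coloured by step, in the 3 comparisons. SDP1 has an interval below 0 before adjustment in both mARF10 comparisons; AT4G24160 does so against Col-0, and no gene passed after adjustment.

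Of the tested genes for the oil body coat and seed storage proteins, OLEO3 alone passed, and only between mARF10 and ARF10. In that comparison 0.408% of all tested probe sets were called. OLEO3 is an oleosin of the oil body coat, and its values are given from low to high, not by replicate. It was at 10.11, 10.51 and 10.58 in mARF10, 9.24, 9.33 and 9.37 in ARF10, and 9.51, 9.59 and 9.72 in Col-0 seeds. It was higher in mARF10 than in ARF10 by 1.09 (adjusted p = 0.0120 by limma), whereas its difference from Col-0 of 0.80 did not pass (adjusted p = 0.185). AT3G01570 and AT2G25890, also on the coat list and named by locus only, differed by 1.46 and 1.54 between mARF10 and ARF10 and did not pass (adjusted p = 0.0697 and 0.169). The annotation named 3 of 9 listed oil body coat genes; their mean log2 signal was 9.84 to 10.41 on the mARF10 arrays, 8.56 to 8.95 on the ARF10 arrays and 9.00 to 9.71 on the Col-0 arrays. Between ARF10 and Col-0 the differences of OLEO3, AT3G01570 and AT2G25890 were -0.29, -0.74 and -1.27, and none passed (adjusted p = 0.892 for each by limma).

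Markers of the stage of the seed also differed between arrays. Of 15 listed late embryogenesis abundant (LEA) genes, which protect the drying seed, 10 were measured, with a mean of 10.29 to 10.89 on the mARF10 arrays, 9.27 to 9.74 on the ARF10 arrays and 9.63 to 11.09 on the Col-0 arrays. Of 12 listed photosynthesis genes 4 were measured, with a mean of 9.82 to 10.55, 10.25 to 10.62 and 8.86 to 10.44 on the arrays of mARF10, ARF10 and Col-0. The lowest of these was Col-0 replicate 2. Of 11 listed seed storage protein genes, the markers of the embryo, 3 were named and 2 of these were tested (PAP85 and AT2G28490). The mean of these 2 was 9.31 to 10.74 in mARF10, 6.13 to 7.35 in ARF10 and 7.88 to 10.23 in Col-0 seeds. The remaining gene, AT2G18540, lay below the filter, with means of 4.33, 4.35 and 4.37 in mARF10, ARF10 and Col-0 seeds. BAN, a seed coat gene, was the 1 measured member of 4 listed for endosperm and seed coat, with means of 6.53 ± 0.17, 6.60 ± 0.13 and 6.54 ± 0.0070 in mARF10, ARF10 and Col-0 seeds. The part of seed stage or tissue makeup in the SDP1 and AIM1 values was not tested.

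**Figure D5:**
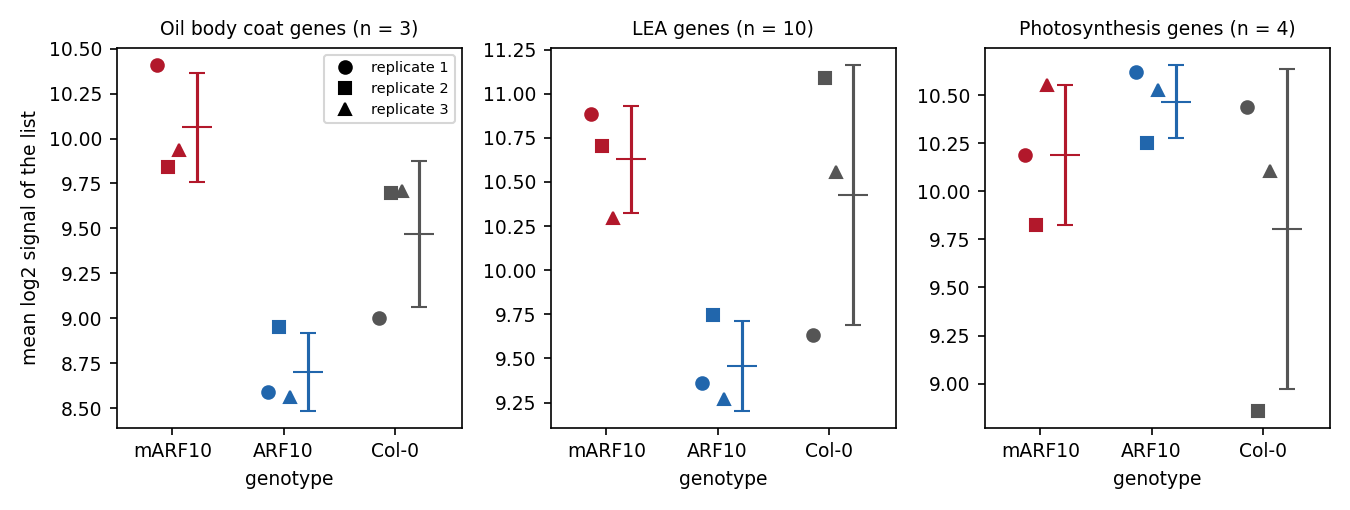
Mean log2 signal (vertical axis) of the measured oil body coat, LEA and photosynthesis genes on each array by genotype, with the mean and SD over 3 arrays beside the points. The coat genes are highest on the mARF10 arrays (9.84 to 10.41), and Col-0 replicate 2 holds the highest LEA and the lowest photosynthesis value.

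The genes whose pattern over the 9 arrays was most like that of SDP1, among 8865 other named genes, were AT2G36670 (Pearson's r = 0.967), AT2G31240 (0.949), AT3G54790 (0.942), AT4G27340 (0.940) and AT3G26560 (0.935). All 5 are named here by locus only. AT2G36670 was at 7.91 ± 0.054 in mARF10, 8.21 ± 0.079 in ARF10 and 8.25 ± 0.14 in Col-0 seeds, and its difference between mARF10 and ARF10 was -0.30 (adjusted p = 0.236 by limma). The most opposed genes were AT1G26665 and AT4G35905 (both -0.958) and AT2G04900 (-0.957). None of these 8 genes passed in any comparison.

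For AIM1 the closest genes were AT3G01920 (0.943), AT5G16880 (0.937), AT5G11460 (0.936), UGT84A3 (0.925), which encodes a glucosyltransferase, and AT1G60730 (0.922). UGT84A3 was at 6.07 ± 0.25 in mARF10, 5.52 ± 0.17 in ARF10 and 5.76 ± 0.095 in Col-0 seeds. These are weak signals: the ARF10 mean lay below the filter value of 5.72, which applied to the mean over the 9 arrays. The UGT84A3 difference of 0.55 between mARF10 and ARF10 did not pass (adjusted p = 0.149 by limma). The most opposed were AT3G47980 (-0.962), AT5G64950 (-0.948) and AT2G35605 (-0.925), and none of the 8 passed. These correlations were picked as the extremes among 8865 genes over 9 arrays that share their genotypes, so values this high are a description and carry no test.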

How the data were processed

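The authors' deposited table held log2 signals, 1 per probe set and array; base 2 was inferred from their range of 3.70 to 14.78, while their summary and normalization were not stated in any source used. Per the labels' protocols, RNA was amplified and labelled with biotin. Array medians lay between 7.06 and 7.11, so no normalization was added. After 64 control probe sets were removed, the 15922 probe sets whose mean reached the 30th percentile (5.72) were tested. Detection above background was not assessed, as no scanner files were used, and the number of arrays limits the precision.

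Probe sets were named from the platform annotation (13513 with 1 gene, 503 with several, 8730 unnamed here) and matched for 13436 to the gene table of TAIR10.1. Limma 3.58.1 in R 4.3.3 fitted 1 mean per genotype over all 9 arrays, with eBayes and Benjamini-Hochberg adjustment (6 residual degrees of freedom, 3.11 added by moderation); the script was tested on simulated data. Intervals are 95% limma intervals. Exact permutation tests used scipy 1.17.1. All tests are 2-sided, except that the F-tests have no direction.

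The members, the 11 gene lists (143 genes) and the tests were chosen with earlier results of these data known. Named genes are the members, the up to 4 measured genes of a list with the smallest F-test p, extended after the values were seen to all 13 oil breakdown genes, and the 5 most like and 3 most opposed genes of each member. For the LEA, storage protein and photosynthesis lists, array means of the tested genes are given in place of single genes, except for AT2G18540, which was not tested. Same-numbered arrays were checked for pairing by the correlation of their deviations from the genotype means over the tested probe sets: it exceeded 0.1 in all 3 pairs of ARF10 and Col-0 (0.478, 0.490 and 0.195), but not for replicate 1 of mARF10 with ARF10 (-0.082) or Col-0 (-0.165). The labels give a number to 1 replicate of all genotypes, so a fit with the number as a block was an alternative. The others were the filter, fits of 2 genotypes, quantile normalization, median centring, a floor at 4, trended and robust eBayes, array weights and leaving out each array.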

Additional observations from a re-analysis of the deposited data

How the results depend on the processing

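The differences of SDP1 and AIM1 between mARF10 and ARF10 kept their sign and stayed short of the threshold in all 19 alternatives (SDP1 -0.26 to -0.17 with arrays left out and adjusted p from 0.101 to 0.775; AIM1 0.11 to 0.27 and 0.126 to 0.788). SDP1 between mARF10 and Col-0 kept its sign in all 19 (-0.29 to -0.20 with arrays left out) and passed in 1, limma's default array weights (-0.24, adjusted p = 0.00573; F over the 3 genotypes 12.4, adjusted p = 0.0118). That weighting did not converge and gave 1 array, Col-0 replicate 3, a weight of 18.6; it also called 1212 probe sets between mARF10 and ARF10, 5229 between mARF10 and Col-0, and 2001 between ARF10 and Col-0. With gene-by-gene weights, chosen after seeing this, the counts were 784, 82 and 1 in that order, and SDP1 did not pass. SDP1 between ARF10 and Col-0 changed sign with median centring (0.0096) and ranged from -0.071 to 0.024 with arrays left out; these values are all close to 0.

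The count of called probe sets was 65 for mARF10 minus ARF10 and 0 for the others. It was 397 in a fit of mARF10 and ARF10 alone, and 1 for ARF10 minus Col-0 with quantile normalization or with trended and robust eBayes. With arrays left out it ranged from 1 (without ARF10 replicate 3) to 267 (without Col-0 replicate 2) for mARF10 minus ARF10, from 0 to 14 (without Col-0 replicate 1) for mARF10 minus Col-0, and between ARF10 and Col-0 from 0 to 19 (without Col-0 replicate 1). The cause of these changes in the count was not tested. With the replicate number as a block, adjusted p was 0.277 and 0.280 for SDP1 and 0.358 and 0.555 for AIM1 in the mARF10 comparisons, and 70 probe sets were called for mARF10 minus ARF10; the block changed no call of either gene.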
